A study of Canis lupus familiaris with 34 samples.

Results

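The nuclear genes of the mitochondrial respiratory chain were followed across 34 canine tumor and tumor-like samples on Affymetrix Canine_2 arrays. A gene was included when a probe set carried its symbol alone and that symbol began with NDUFA, NDUFB, NDUFC, NDUFS, NDUFV, UQCR, ATP5, COX4, COX5, COX6, COX7 or COX8, or was SDHA, SDHB, SDHC or SDHD. This gave 70 genes, read by 139 probe sets, among 15115 genes and 42860 probe sets on the array. The probe set with the highest mean over the 34 arrays stood for each gene, so that 26 genes had no choice of probe set and 44 did. Values were the deposited log2 intensities, in which a difference of 1 is a doubling of signal.

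The samples were cell lines from 10 hemangiosarcomas (malignant tumors of blood vessels), 6 of them from Golden Retrievers and 1 each from a Rottweiler, a Golden Retriever x Great Pyrenees, a Portuguese Water Dog and a Dalmatian. Low passage cultures came from 3 hematomas of the spleen, a non-malignant lesion, of a Golden Retriever, a Standard Poodle and a Keeshond, and cell lines came from 5 Golden Retriever osteosarcomas (bone tumors). Tumor cells that were not cultured came from 6 diffuse large B cell lymphomas (DLBCL), 6 T-zone lymphomas (TZL), 1 marginal zone B cell lymphoma, 2 chronic lymphocytic leukemias and 1 acute lymphoblastic leukemia, the last of a Golden Retriever mix and the others of Golden Retrievers. Each sample was 1 array from a separate dog, the labels give no ages or treatments, and the hemangiosarcoma and hematoma cells had been grown under conditions that favor endothelial cells. Dogs are named as the labels name them.

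The respiratory chain sits in the inner mitochondrial membrane. Complex I (the NDUF proteins) and complex II (succinate dehydrogenase, the SDH proteins) pass electrons to ubiquinone, complex III (the UQCR proteins) passes them on to cytochrome c, and complex IV (the COX proteins) passes them to oxygen, while complexes I, III and IV pump protons. ATP synthase (the ATP5 proteins) makes ATP from the proton gradient. Most subunits are coded in the nucleus and imported, a core set is coded in mitochondrial DNA, and several complex IV subunits exist as pairs of genes used by different tissues.

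By complex, the 70 genes were 33 complex I subunits, 7 complex I assembly factors (the NDUFAF genes, which help to build complex I but do not remain in it), the 4 subunits of complex II, 7 subunits of complex III, 9 complex IV genes, 9 ATP synthase subunits and ATP5IF1, the inhibitor of ATP synthase. NDUFA4 and its relative NDUFA4L2 were counted with complex IV, where the NDUFA4 protein is found despite its name. COX5A had only probe sets shared with another symbol and was left out, and none of 26 listed mitochondrially encoded genes was named on the array. Since 40 of the 70 probe sets end in _s_at or _x_at, and so can match several transcripts, copies of these genes cannot always be told apart.

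Several technical measures differed between the groups and bear on the values below. The actin control, read as the signal at the 3′ end minus that at the 5′ end and higher in degraded RNA, was 0.65 ± 0.41 (SD, n = 10) in hemangiosarcoma, 0.19 ± 0.37 (SD, n = 3) in hematoma, 1.14 ± 0.53 (SD, n = 5) in osteosarcoma, 0.88 ± 0.62 (SD, n = 6) in DLBCL and 0.22 ± 1.16 (SD, n = 6) in TZL, and it lay between 2.01 and 3.35 in the 3 leukemias. Within TZL, Thunder (1.89) and Fire (1.53) stood apart from the other 4, which lay between -0.70 and -0.37. The hybridization controls read 9.25 to 9.78 in the hemangiosarcoma lines and 10.00 to 10.82 in the osteosarcoma lines, with no overlap. They read 10.04 to 10.70 in TZL, 10.26 to 11.32 in DLBCL, 10.82 in the marginal zone lymphoma and 10.69 to 11.14 in the leukemias. These too lay above every hemangiosarcoma line. Of 11 endothelial markers, 1 to 5 lay above the array median in each hemangiosarcoma line and 2 to 5 in each hematoma culture, whereas 10 or 11 of 11 mural cell and fibroblast markers did in both. Osteoblast markers above the array median numbered 0 to 2 of 5 in the osteosarcoma lines, and lymphocyte markers 9 to 11 of 11 in the leukemias and lymphomas. Correlation could not single out a duplicate, as the highest value, 0.9854, was between ChadG8 and DD1, lines of separate dogs. In such bulk samples, fewer cells of a type and less RNA per cell cannot be told apart.

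Most of the respiratory chain varied little between tumor types. On all 34 arrays, 67 of the 70 genes lay above their array's median signal, the exceptions being NDUFA4L2, COX4I2 and NDUFAF7. For the 6 tumor types with at least 2 arrays, the range between the highest and the lowest type mean had a median of 0.75 over the 70 genes and 0.96 over all genes. This range was under 1 for 47 of the 70 (67.1%) and for 52% of all genes, and it was 2 or more for 4 of the 70 (5.71%) and for 20.3% of all genes. Among genes above the median on every array, the median range was 0.73 for 67 respiratory chain genes and 1.07 for 6186 genes in all. These are descriptions with no test, and they rest on 2 to 10 arrays per type.

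**Figure D1:**
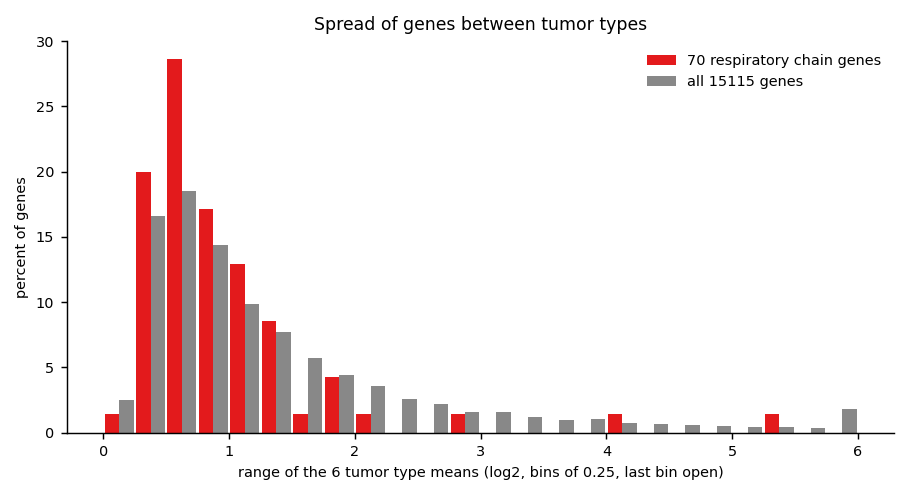
Percent of genes (vertical axis) by the range of their 6 tumor type means on the log2 scale (horizontal axis, bins of 0.25), for the 70 respiratory chain genes and all 15115 genes. The respiratory chain genes gather at small ranges, with a median of 0.75 against 0.96, and the 2 at the far right are COX7A1 (4.19) and NDUFA4L2 (5.38).

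The 4 genes with a range of 2 or more were NDUFA4L2 (5.38), COX7A1 (4.19), NDUFAF7 (2.87), an enzyme that methylates a complex I subunit during assembly, and NDUFS1 (2.01), the largest complex I subunit. At the other end were COX8A, a small subunit of complex IV (0.20), NDUFA12 of complex I (0.26) and UQCRH, the hinge protein of complex III (0.28). The type means of COX8A ran from 12.42 ± 0.62 in hematoma (SD, n = 3) to 12.62 ± 0.07 in chronic lymphocytic leukemia (SD, n = 2), a difference within the spread of the hematoma cultures. In the ATP synthase group the range was widest for ATP5MC1 (1.78), 1 of 3 genes for the rotor subunit c, and narrowest for ATP5J2 (0.34), a small membrane subunit. The inhibitor ATP5IF1 had a range of 0.32. In complex II it was widest for SDHB (0.79), the iron-sulfur subunit, and narrowest for SDHD (0.36), a membrane anchor. In complex III it was widest for UQCRC2 (1.12), a core protein, and among the assembly factors it was narrowest for NDUFAF3 (0.67).

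DLBCL had the highest type mean for 31 of the 70 genes and hemangiosarcoma for 15. Chronic lymphocytic leukemia had the lowest for 37, TZL for 13 and hematoma for 12. These counts have no counterpart over all genes here, and the means of chronic lymphocytic leukemia rest on 2 arrays. The 2 chronic lymphocytic leukemias also had actin differences of 2.01 and 3.35, and the part of RNA quality in their low values was not tested.

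To describe each complex on each array, every gene was centred on its mean over the 34 arrays and the median was taken over the genes of the complex. For ATP synthase the 6 DLBCL arrays lay close together, at a mean of 0.28 ± 0.06 (SD, n = 6), and the 6 TZL arrays lay between -0.54 and 0.31. In complex I the means were 0.12 ± 0.18 in DLBCL and -0.17 ± 0.33 in TZL (SD, n = 6 each), 0.07 ± 0.21 in hemangiosarcoma (SD, n = 10), 0.00 ± 0.33 in hematoma (SD, n = 3) and 0.08 ± 0.14 in osteosarcoma (SD, n = 5). Complex IV showed the least spread by this median, from -0.38 to 0.34 over all arrays, though the median does not show the wide ranges of COX7A1 and NDUFA4L2. The assembly factors showed the most, from -0.82 to 0.96, with TZL at -0.47 ± 0.38 (SD, n = 6) and hemangiosarcoma at 0.30 ± 0.33 (SD, n = 10).

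Single arrays marked the ends in several complexes at once. The T-zone lymphoma Fire was the lowest array for complexes I, II and IV, the assembly factors and ATP synthase, and held the lowest value of 21 of the 70 genes. Dal4, the hemangiosarcoma line of the Dalmatian, was the highest for complexes II, III and IV, the assembly factors and ATP synthase, and held the highest value of 14 genes. Kylie was the low one of the 3 hematoma cultures in each complex (level with Fire in complex IV), with a median over the 70 genes of -0.38 against 0.21 and 0.24, and held the lowest value of 12 genes. Kylie also had the highest hybridization control signal of the 3, 10.16 against 9.48 and 9.45, whose part in these values was not tested. The counts of lowest and highest values on single arrays have no counterpart over all genes here.

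**Figure D2:**
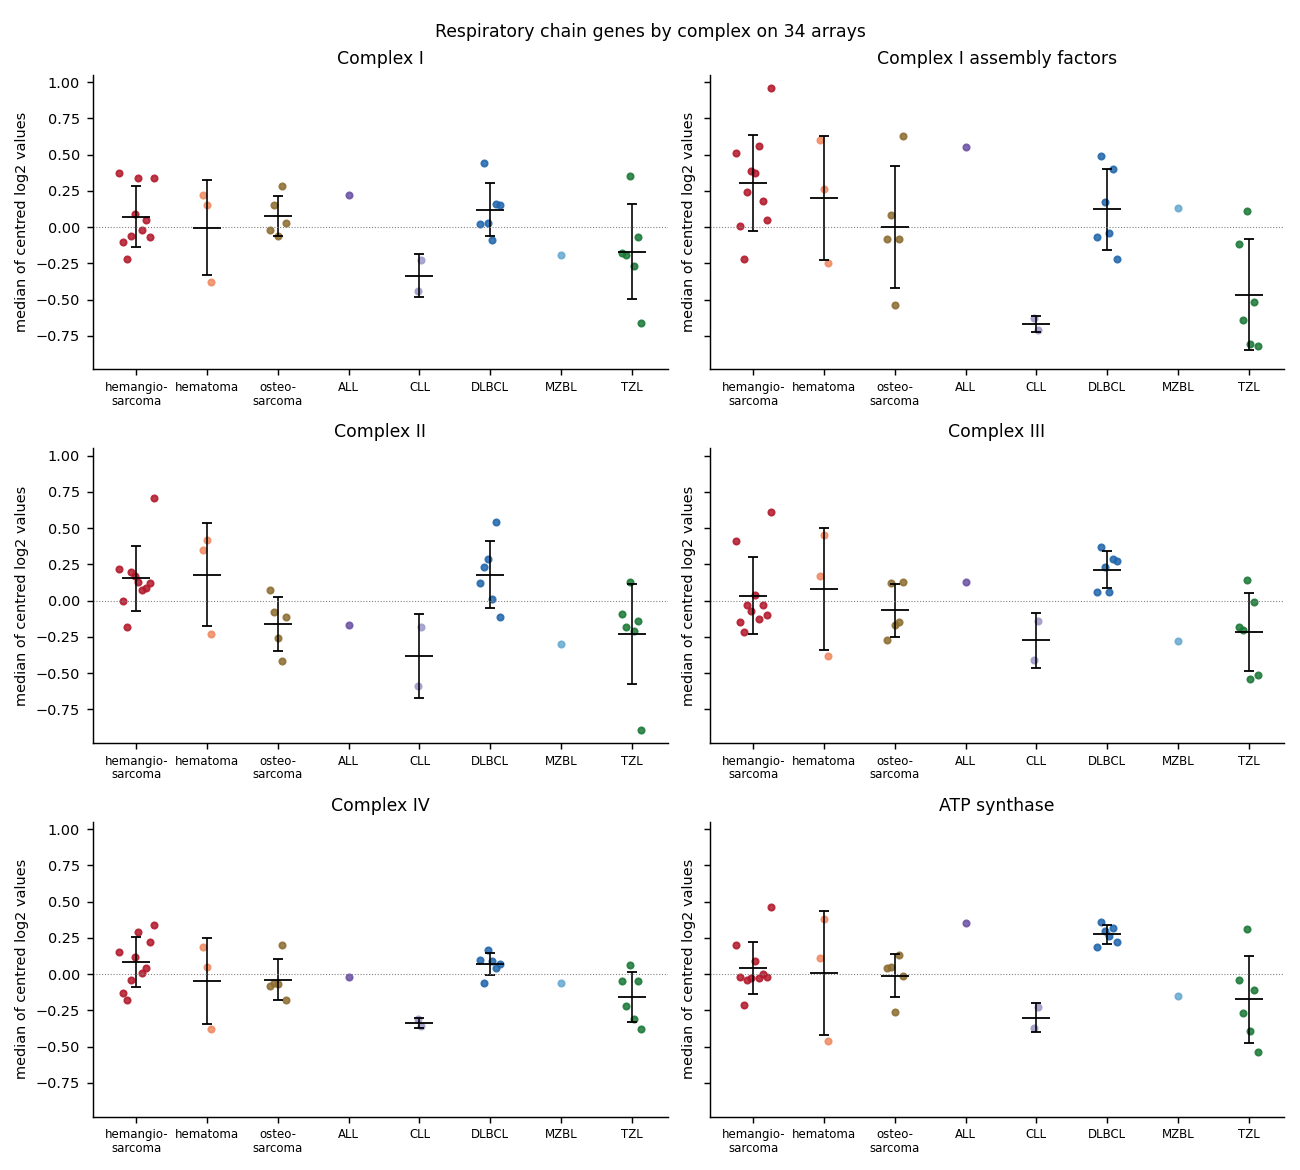
Median of the centred log2 values of the genes of each complex (vertical axis) on each of 34 arrays (points), by tumor type (horizontal axis: ALL, acute lymphoblastic leukemia; CLL, chronic lymphocytic leukemia; MZBL, marginal zone B cell lymphoma), with bars for the mean and SD of types with 2 or more arrays and a dotted line at 0. The 6 DLBCL arrays lie close together for ATP synthase, the highest hemangiosarcoma point in complexes II and III is Dal4, and the lowest TZL point in complexes I and II is Fire.

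The widest contrasts were those of COX7A1 and NDUFA4L2, both counted with complex IV. COX7A2 and COX6A1, the partners of COX7A1 and COX6A2, were not among the genes followed, so neither pair could be compared. COX7A1, the form of subunit 7A found mostly in heart and skeletal muscle, lay between 10.11 and 12.03 (median 10.75) on the 18 arrays of cultured cells. On the 16 arrays of leukemia and lymphoma cells it lay between 5.90 and 7.30 (median 6.76). Every culture thus lay above every leukemia and lymphoma, with no overlap. The difference was 3.98 (SE 0.15), or 15.8-fold, with an adjusted p of 2.47e-22 (limma, Benjamini-Hochberg over all probe sets tested). Within the cultures the level of COX7A1 was 10.85 ± 0.55 in hemangiosarcoma (SD, n = 10), 10.59 ± 0.27 in hematoma (SD, n = 3) and 10.68 ± 0.42 in osteosarcoma (SD, n = 5), means that lay within 1 SD of each other. COX7A1 is read by a single probe set on this array. Its relative COX7A2L, which takes part in joining complexes III and IV, read 9.89 to 11.01 in cultured cells and 9.56 to 10.96 in the others, a difference of 0.15 (SE 0.12) that did not pass (adjusted p = 0.249).

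NDUFA4L2, a relative of NDUFA4 known as a target of the hypoxia-inducible factor HIF-1, was below the array median in all 16 leukemias and lymphomas, at 4.17 to 5.23 (median 4.86). In the 6 Golden Retriever hemangiosarcoma lines it read 5.65 in ChadG4, 10.08 in ChadG6, 12.17 in ChadG8, 11.24 in Frog, 12.11 in Journey and 8.29 in Tucker. In the other 4 lines it read 10.07 in Joey, 10.95 in DD1, 11.08 in ChadP9 and 6.29 in Dal4. ChadG4 and Dal4 were thus far below the other 8 lines. Among the hematoma cultures it read 9.04 in Pippin, 4.90 in Baxter and 8.86 in Kylie. The osteosarcoma lines OSCA20, OSCA23, OSCA59 and OSCA75 read 10.87, 10.79, 12.48 and 11.39, and OSCA71 read 4.74, a value in the range of the lymphoid cells. The gene exceeded the array median on 15 of the 34 arrays, fewer than the 16 the filter asked for. It therefore did not enter the filtered test between cultured and lymphoid cells. The means differed by 4.69, given without a p-value, since the lymphoid levels all lay under the array medians. A single probe set reads it.

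The other tissue-specific forms stayed near the array medians, which ran from 5.57 to 5.77. COX4I2, the form of subunit 4 found mostly in lung, read 5.27 to 5.99 (median 5.72) in cultured cells and 5.86 to 6.82 (median 6.06) in leukemia and lymphoma cells. COX6A2, the heart and skeletal muscle form of subunit 6A, read 5.73 to 6.11 (median 5.94) in cultured cells and 5.76 to 6.96 (median 6.28) in the others. The ranges of both genes overlapped between the arms, and both differences passed the test, COX4I2 at -0.41 (SE 0.09, adjusted p = 1.25e-04) and COX6A2 at -0.38 (SE 0.09, adjusted p = 6.08e-04). A second COX4I2 probe set, with means of 5.36 in both arms, was too dim to be tested. COX4I1, the widely used form of subunit 4, read 12.54 to 13.40 in cultured cells and 12.19 to 13.49 in the others, a difference of 0.14 (SE 0.11) that did not pass (adjusted p = 0.255).

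**Figure D3:**
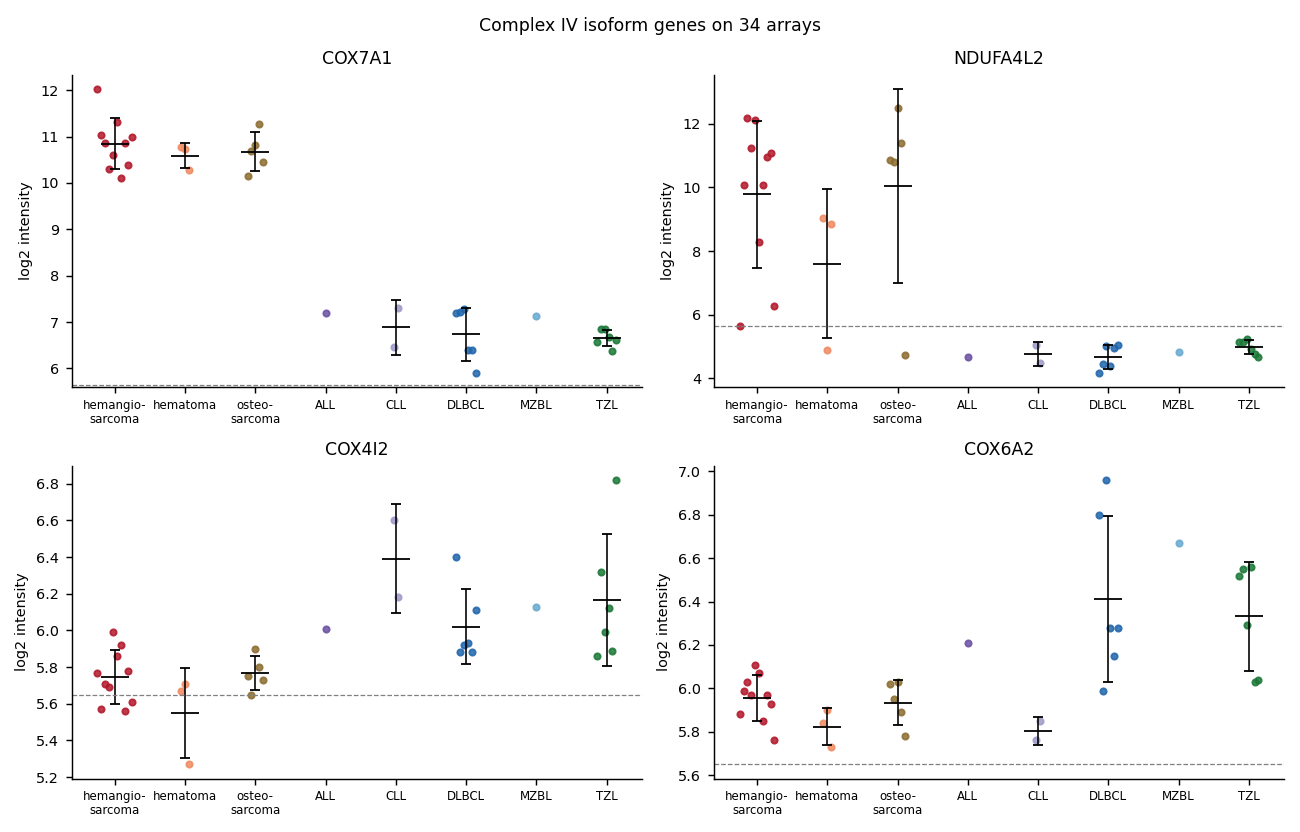
Log2 intensity (vertical axes, each with its own scale) of COX7A1, NDUFA4L2, COX4I2 and COX6A2 on each of 34 arrays (points) by tumor type, with bars for the mean and SD and a dashed line at the median of the array medians. COX7A1 lies between 10.11 and 12.03 in cultures and between 5.90 and 7.30 in lymphoid cells, and NDUFA4L2 is low in all lymphoid cells and in ChadG4, Dal4, Baxter and OSCA71.

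Cultured and uncultured cells were compared over 18 and 16 arrays at an adjusted p of 0.001. Culture, cell lineage and tumor type differ together in this comparison and cannot be told apart. Of 69 respiratory chain genes tested, 7 were higher and 5 lower in cultured cells, 12 in all or 17.4%, while 43.2% of all genes tested passed (21.7% higher, 21.5% lower). The median difference over the 70 genes was 0.10, and over all genes -0.14. Of the 70 differences, 65 lay between -1 and 1, a count with no share over all genes beside it.

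Beside COX7A1, the genes higher in cultured cells were 4 complex I subunits and 2 complex I assembly factors. NDUFAF7 read 7.18 to 9.42 (median 8.40) in cultured and 5.41 to 8.85 (median 6.73) in lymphoid cells, a difference of 1.49 (SE 0.28, adjusted p = 1.77e-05). NDUFAF2, an assembly factor, read 8.94 to 11.25 (median 10.05) and 7.40 to 9.97 (median 8.92), a difference of 1.26 (SE 0.23, adjusted p = 1.83e-05). NDUFA8, an accessory subunit, read 10.86 to 12.08 (median 11.43) and 9.03 to 11.70 (median 10.33), a difference of 1.04 (SE 0.18, adjusted p = 8.76e-06). The ranges of all 3 genes overlapped between the arms. NDUFV2, an iron-sulfur subunit of the arm that takes electrons from NADH, read 11.03 to 11.96 (median 11.34) and 9.35 to 11.48 (median 10.72), a difference of 0.77 (SE 0.14, adjusted p = 8.00e-06). NDUFB4 was higher by 0.68 (SE 0.13, adjusted p = 2.50e-05) and NDUFS4 by 0.55 (SE 0.12, adjusted p = 1.23e-04), both accessory subunits.

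The genes lower in cultured cells came from complex I and ATP synthase beside COX4I2 and COX6A2. NDUFS5, an accessory subunit of complex I, read 10.57 to 12.08 (median 11.37) in cultured and 11.85 to 12.64 (median 12.13) in lymphoid cells. Its difference was -0.79 (SE 0.11, adjusted p = 9.15e-08), and of the cultures only OSCA71, at 12.08, reached the lymphoid range. NDUFV1, which binds NADH, read 9.40 to 10.84 (median 10.23) and 10.12 to 11.32 (median 10.63), a difference of -0.53 (SE 0.13, adjusted p = 7.84e-04), while its partner NDUFV2 was higher. ATP5MC2, a gene for subunit c, read 12.13 to 13.12 (median 12.47) and 12.60 to 13.34 (median 12.94), a difference of -0.42 (SE 0.09, adjusted p = 2.33e-04). Of the 12 genes that passed, 5 had another probe set tested, and for 4 of these another probe set passed in the same direction.

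Without the 10 hemangiosarcoma lines, COX7A1 and NDUFS5 passed and the other 10 did not, at a share of 24.7% over all probe sets. All 10 kept their direction, with NDUFV2, for example, at 0.71 and NDUFB4 at 0.61. Without the 3 leukemias all 12 still passed, a count with no share over all probe sets beside it. Other metabolic lists are given by their counts, to be read against the 43.2% of all genes. Of 21 glycolysis genes tested, 13 were higher and none lower in cultured cells, among them PFKM (difference 3.08, SE 0.21, adjusted p = 6.80e-15) and the glucose carrier SLC2A1 (2.02, SE 0.25, adjusted p = 1.73e-08). Of 17 genes of the tricarboxylic acid cycle, 4 were higher and none lower, and of 39 mitochondrial ribosome genes 6 were higher and 2 lower. All 8 lymphocyte markers tested were lower and 10 of 11 mural cell and fibroblast markers higher in cultured cells, and the part of cell type in the values above was not tested.

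The comparison of hemangiosarcoma lines with hematoma cultures asked what sets the malignant cells apart from cells of a non-malignant lesion. No respiratory chain gene passed at an adjusted p of 0.1 in limma among 70 tested, and 0.256% of all genes tested did. At an unadjusted p of 0.05, 1 of the 70 passed, and 927 of 9761 of all genes tested did. This was NDUFB7, an accessory subunit of complex I, at 9.88 to 11.27 (median 10.25) in the 10 lines and 10.24, 9.84 and 9.14 in Pippin, Baxter and Kylie (difference 0.60, SE 0.28, adjusted p = 0.515). The groups overlapped, and the highest line was ChadG4. The median difference over the 70 genes was 0.09, with 47 above and 23 below 0, and over all genes it was 0.07. By complex the median difference ran from -0.10 in complex II to 0.16 for ATP5IF1.

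Among the 4 subunits of complex II, differences between hemangiosarcoma and hematoma were -0.19 (SE 0.16) for the catalytic subunit SDHA, -0.10 (SE 0.27) for SDHB, 0.18 (SE 0.25) for the membrane anchor SDHC and -0.10 (SE 0.17) for SDHD. None passed (adjusted p = 0.705, 0.916, 0.825 and 0.853). For NDUFA4L2 the difference was 2.19 with an SE of 1.37 (adjusted p = 0.613), as low values lay in both groups. With 3 hematoma cultures, a difference of the size of the SEs given here was not detectable. Of the other lists, glycolysis moved more than the chain, with 19 genes above and 3 below 0 and a median difference of 0.49. Tricarboxylic acid cycle genes had 2 above and 15 below 0, with a median of -0.18. These shifts of whole lists were not tested. No gene of the tricarboxylic acid cycle, mitochondrial ribosome, electron carrier, assembly factor or glycolysis lists passed in limma, and 0 to 3 genes of each had an unadjusted p under 0.05, the threshold that 927 of all 9761 genes passed. Among the cell type markers, PDGFRB, a receptor of mural cells, was lower in hemangiosarcoma (-2.44, SE 0.47, adjusted p = 0.0734) and was the single gene that passed.

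The Golden Retriever hemangiosarcoma lines were set against the 21 other tumors, that is 5 osteosarcoma lines and 16 leukemias and lymphomas, at an adjusted p of 0.001. The hybridization signal did not overlap between these groups, so it and the tumor type cannot be told apart. All 6 lines were cultured and 16 of the 21 others were not, so culture and cell lineage are largely mixed with tumor type as well. Of the 70 genes, 2 passed (2.86%), against 7.23% of all genes tested. The first was COX7A1, at 10.31 to 12.03 (median 10.94) in the 6 lines and 5.90 to 11.28 (median 7.12) in the 21 others, a difference of 3.32 (SE 0.70, adjusted p = 8.74e-04). All 5 osteosarcoma lines lay between 10.15 and 11.28, in the range of the hemangiosarcoma lines or just under it, and all 16 lymphoid samples lay at 7.30 or below. The second was NDUFS5, at 10.88 to 11.66 (median 11.20) in the lines and 11.44 to 12.64 (median 12.10) in the others, a difference of -0.78 (SE 0.15, adjusted p = 2.61e-04). Its ranges overlapped narrowly. Without the DLBCL or without the TZL arrays, neither gene passed, and no share over all probe sets is given beside this. Another NDUFS5 probe set gave a difference of -0.23 that did not pass (adjusted p = 0.168). NDUFA4L2 had the largest difference of the 70, 3.86 (SE 1.17), and did not pass (adjusted p = 0.0117).

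Among the lists around the chain, TTC19, a factor for complex III, was higher in the hemangiosarcoma lines by 1.15 (SE 0.22, adjusted p = 3.47e-04), and SDHAF1, a factor for complex II, was at -0.80 (SE 0.14, adjusted p = 1.28e-04). They were the genes that passed of 34 assembly factors tested. SUCLA2 (1.16, SE 0.24, adjusted p = 6.74e-04) and PC (1.16, SE 0.25, adjusted p = 8.89e-04), coding for a subunit of succinyl-CoA synthetase and for pyruvate carboxylase, were those of 17 genes of the tricarboxylic acid cycle. Of 21 glycolysis genes, SLC2A1 (2.46, SE 0.32, adjusted p = 3.06e-06) and the lactate dehydrogenase subunit LDHA (0.99, SE 0.21, adjusted p = 9.29e-04) passed. LDHA also differed by 0.98 (SE 0.12) between cultured and lymphoid cells. Culture and cell lineage are mixed with tumor type in all of these values. No electron carrier or mitochondrial ribosome gene passed in limma, of 17 and 39, at this threshold. Among all genes tested, 7.23% passed this threshold, the share to set beside each list. At an unadjusted p under 0.05, 9 of the 17 electron carriers and 18 of the 39 mitochondrial ribosome genes passed, where 5042 of 10491 of all genes tested did.

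Against the 5 osteosarcoma lines alone, all cultured and all of Golden Retrievers, 4 of 70 genes passed at an adjusted p of 0.05 (5.71%), while 15.2% of all genes tested passed. NDUFS1, which carries iron-sulfur clusters of complex I, read 11.15 to 11.25 (median 11.22) in the 6 hemangiosarcoma lines. In OSCA20, OSCA23, OSCA59, OSCA75 and OSCA71 it read 11.01, 10.31, 10.60, 9.88 and 10.25. The groups did not overlap, and the difference was 0.80 (SE 0.18, adjusted p = 0.0146). NDUFAB1, the mitochondrial acyl carrier protein, read 10.82 to 11.50 (median 11.03) in the hemangiosarcoma lines. It read 10.33, 10.39, 10.13, 10.75 and 10.83 in the osteosarcoma lines, so that the groups just overlapped (difference 0.63, SE 0.18, adjusted p = 0.0384). Its other tested probe sets gave 0.57, 0.41 and -0.09 and did not pass (adjusted p = 0.0868, 0.173 and 0.859).

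NDUFA4 read 11.83 to 12.37 (median 12.06) in hemangiosarcoma and 11.68, 11.71, 11.34, 11.63 and 11.23 in osteosarcoma. It did not overlap, with a difference of 0.55 (SE 0.16, adjusted p = 0.0342), and a second NDUFA4 probe set passed as well at 1.02 (adjusted p = 6.90e-03). NDUFB9, an accessory subunit of complex I, was the gene lower in hemangiosarcoma, at 10.76 to 11.25 (median 11.05) against 11.45, 11.60, 11.47, 11.74 and 12.43. The groups did not overlap (difference -0.69, SE 0.19, adjusted p = 0.0311), and OSCA71 was the highest. A second NDUFB9 probe set gave -0.20 (adjusted p = 0.425). The median difference over the 70 genes was 0.07 and over all genes -0.02. Complex II was higher in hemangiosarcoma for 4 of 4 genes, by 0.11 to 0.38, and none passed.

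NDUFS1 was mostly low on the arrays with a high actin difference, a pattern looked for after the values were seen. Its cause was not tested. Of the 10 arrays with the highest actin difference (1.44 or more), 9 held NDUFS1 below the lowest hemangiosarcoma line (10.96), in osteosarcoma, both of the larger lymphoma groups and the leukemias. The exception was Tucker, a hemangiosarcoma line with an actin difference of 1.52 and NDUFS1 at 11.23. Among the other 24 arrays, 1 lay below that line, OSCA23 (actin difference 0.49). With the actin difference as a covariate, NDUFAB1 was the single gene of the 4 that passed against osteosarcoma, and NDUFS1 fell short at 0.72 (adjusted p = 0.0579). The share over all probe sets in that fit is not given here. With the hybridization signal as a covariate none of the 4 passed, and the share over all probe sets fell from 16.4% to 0.172%. That signal did not overlap between these groups, so it and the tumor type cannot be told apart. Leaving out the hemangiosarcoma line Frog left NDUFS1 alone, and 2 genes passed without ChadG6, ChadG8, OSCA23 or OSCA59. Shares over all probe sets are not given for these left-out arrays. All other NDUFS1 probe sets were higher in hemangiosarcoma too, with differences of 1.30, 0.77 and 0.90, of which the first 2 passed (adjusted p = 0.0188 and 0.0370) and the last did not (adjusted p = 0.119).

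Around the chain, few listed genes passed against osteosarcoma, and their counts are to be read against the 15.2% of all genes tested that passed. Among 34 assembly factors TTC19 was higher in the hemangiosarcoma lines (0.89, SE 0.27, adjusted p = 0.0444) and SDHAF1 lower (-0.70, SE 0.19, adjusted p = 0.0273), the genes that also passed against all other tumors, a comparison that shares these 11 arrays. Of 39 mitochondrial ribosome genes, MRPL22 was higher (0.67, SE 0.17, adjusted p = 0.0239) and MRPL12 (-1.07, SE 0.19, adjusted p = 5.03e-03) and MRPL37 (-0.89, SE 0.20, adjusted p = 0.0153) were lower. Among 14 regulators of mitochondrial biogenesis, GABPA (0.89, SE 0.24, adjusted p = 0.0292) and ESRRA (0.61, SE 0.17, adjusted p = 0.0346), transcription factors of nuclear respiratory genes, were higher. SUCLA2 (0.99, SE 0.21, adjusted p = 0.0116) was the gene that passed of 17 in the tricarboxylic acid cycle list, ETFDH (0.88, SE 0.23, adjusted p = 0.0267) that of 16 electron carriers, and SLC2A1 (1.42, SE 0.34, adjusted p = 0.0177) that of 21 glycolysis genes. Beside them, THY1 (-2.90, SE 0.41, adjusted p = 1.50e-03) and PDGFRB (-2.70, SE 0.55, adjusted p = 8.91e-03) of 11 mural cell and fibroblast markers were lower. So were 2 of the 5 endothelial markers tested, ENG (-3.63, SE 0.29, adjusted p = 3.04e-05) and ROBO4 (-0.46, SE 0.12, adjusted p = 0.0265).

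The 2 larger lymphoma groups, both uncultured and both from Golden Retrievers, gave the largest median shift of the chain among the comparisons made here. DLBCL is a fast-growing tumor of B cells, and T-zone lymphoma an indolent tumor of T cells in dogs. Differences were above 0 for 62 of 70 genes and below 0 for 8, with a median of 0.34, where the median over all genes was 0.03. At an adjusted p of 0.05, 12 of 69 genes tested were higher in DLBCL and none lower (17.4%), whereas 10.1% of all genes tested were higher and 9.54% lower, 19.6% in all. By complex, 5 of 33 complex I subunits, 4 of 7 assembly factors, 2 of 7 complex III subunits, 1 of 9 ATP synthase subunits, none of 4 complex II subunits and none of 8 complex IV genes tested passed.

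**Figure D4:**
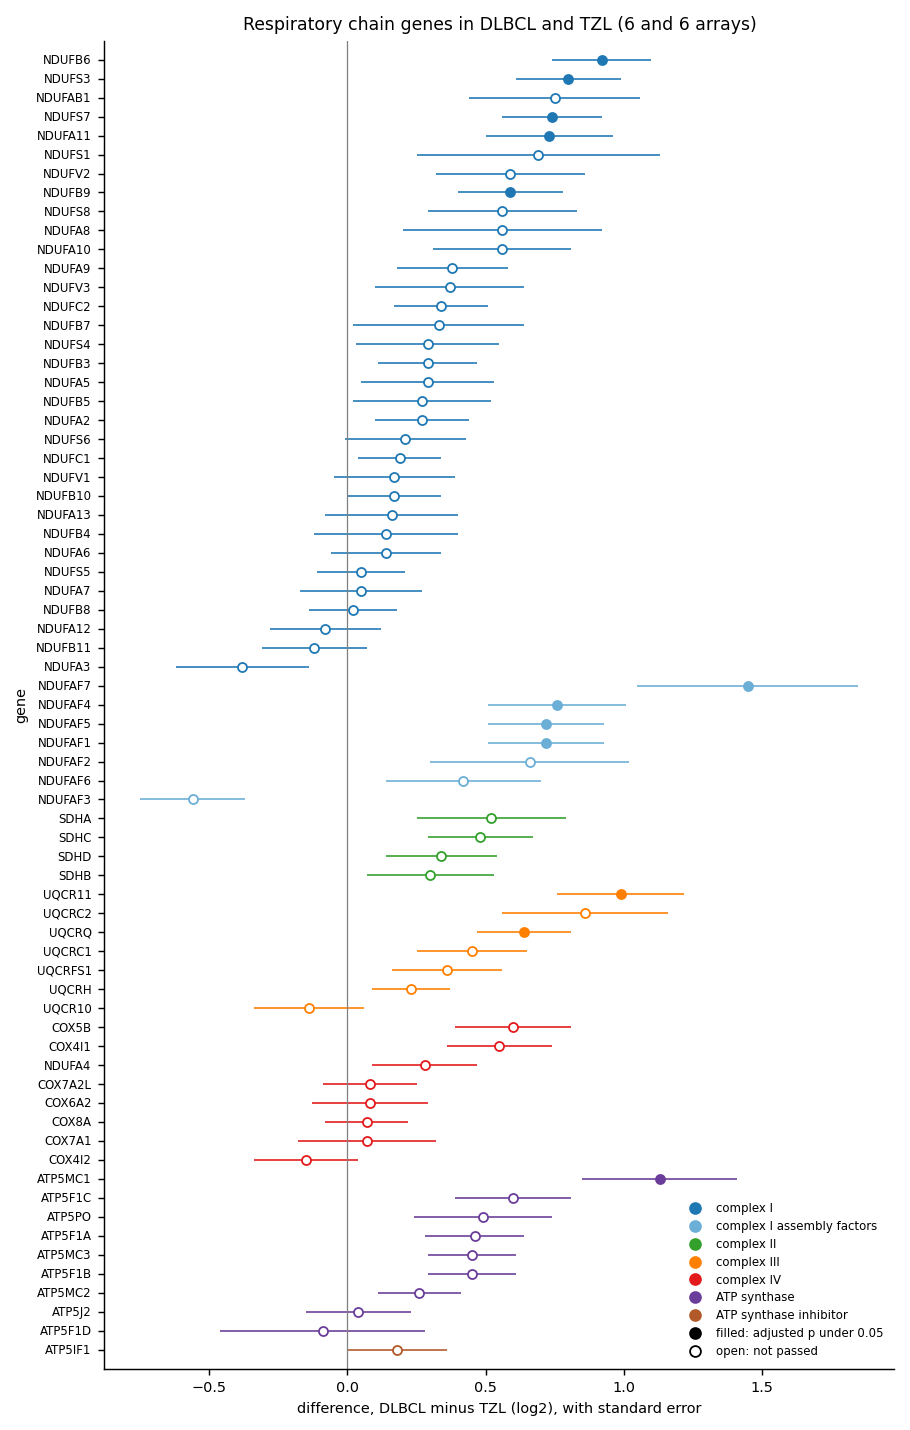
Difference between the means of 6 DLBCL and 6 TZL arrays on the log2 scale (horizontal axis, points with their standard errors) for the 69 genes tested (vertical axis), ordered by complex. Filled points passed at an adjusted p of 0.05. All 12 filled points lie to the right of 0, and the point farthest to the left is NDUFAF3 (-0.56).

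Of the complex I subunits, NDUFB6, an accessory subunit, read 11.92 to 12.86 (median 12.52) in DLBCL and 11.28 to 11.78 (median 11.62) in TZL. The groups did not overlap, and the difference was 0.92 (SE 0.18), or 1.89-fold (adjusted p = 3.56e-03). NDUFS3, a core subunit of the arm that passes electrons to ubiquinone, read 10.79 to 11.34 (median 11.03) and 9.70 to 10.68 (median 10.30), again with no overlap (difference 0.80, SE 0.19, adjusted p = 9.30e-03). NDUFS7, a core subunit with an iron-sulfur cluster, read 10.98 to 11.69 (median 11.44) and 10.36 to 10.89 (median 10.65), with no overlap (difference 0.74, SE 0.18, adjusted p = 0.0126). NDUFA11, a membrane-bound accessory subunit, read 10.91 to 11.97 (median 11.07) and 10.20 to 11.12 (median 10.56), with overlap (difference 0.73, SE 0.23, adjusted p = 0.0417). NDUFB9 read 11.28 to 11.83 (median 11.70) and 10.70 to 11.46 (median 10.97), also with overlap (difference 0.59, SE 0.19, adjusted p = 0.0461).

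Among the assembly factors, NDUFAF7 read 6.89 to 8.85 (median 7.82) in DLBCL and 5.41 to 7.84 (median 6.29) in TZL. Its difference, 1.45 (SE 0.40) or 2.74-fold, was the largest of the 70 genes (adjusted p = 0.0210), and the groups overlapped through Rose at 7.84. NDUFAF1 read 9.75 to 10.56 in DLBCL and 8.82 to 9.73 in TZL, without overlap (difference 0.72, SE 0.21, adjusted p = 0.0282). NDUFAF4 (0.76, SE 0.25, adjusted p = 0.0495) and NDUFAF5 (0.72, SE 0.21, adjusted p = 0.0305) were also higher, with overlap. NDUFAF3 had the lowest difference of the 70, -0.56 (SE 0.19), and did not pass (adjusted p = 0.0555).

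In complex III, UQCR11, a small accessory subunit, read 11.10 to 12.31 (median 11.54) in DLBCL and 10.36 to 11.04 (median 10.47) in TZL. There was no overlap, and the difference was 0.99 (SE 0.23, adjusted p = 8.16e-03). UQCRQ, a ubiquinone-binding small subunit, read 12.55 to 13.21 (median 12.63) and 11.83 to 12.39 (median 12.08), with no overlap (difference 0.64, SE 0.17, adjusted p = 0.0181). In ATP synthase, ATP5MC1 read 11.56 to 12.35 (median 11.71) and 10.03 to 11.77 (median 10.59), a difference of 1.13 (SE 0.28, adjusted p = 0.0124). Rose, at 11.77, was the TZL array inside the DLBCL range. The other genes for the same subunit c did not pass, with ATP5MC3 at 0.45 and ATP5MC2 at 0.26.

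Complex II did not pass, with differences of 0.52 (SE 0.27) for SDHA, 0.30 (SE 0.23) for SDHB, 0.48 (SE 0.19) for SDHC and 0.34 (SE 0.20) for SDHD (adjusted p = 0.211, 0.407, 0.105 and 0.292). In complex IV, COX5B (0.60) and COX4I1 (0.55, SE 0.19, adjusted p = 0.0551) lay above the other genes of the complex and did not pass. Of the 12 genes that passed, 8 had another probe set tested, and for 6 of these another passed in the same direction and none in the other. For NDUFAF4 and NDUFAF5 no other probe set passed. Some other probe sets of UQCR11 (0.22, -0.02 and -0.05) and of NDUFB6 (-0.39) did not pass either (adjusted p = 0.501, 0.968, 0.919 and 0.362).

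**Figure D5:**
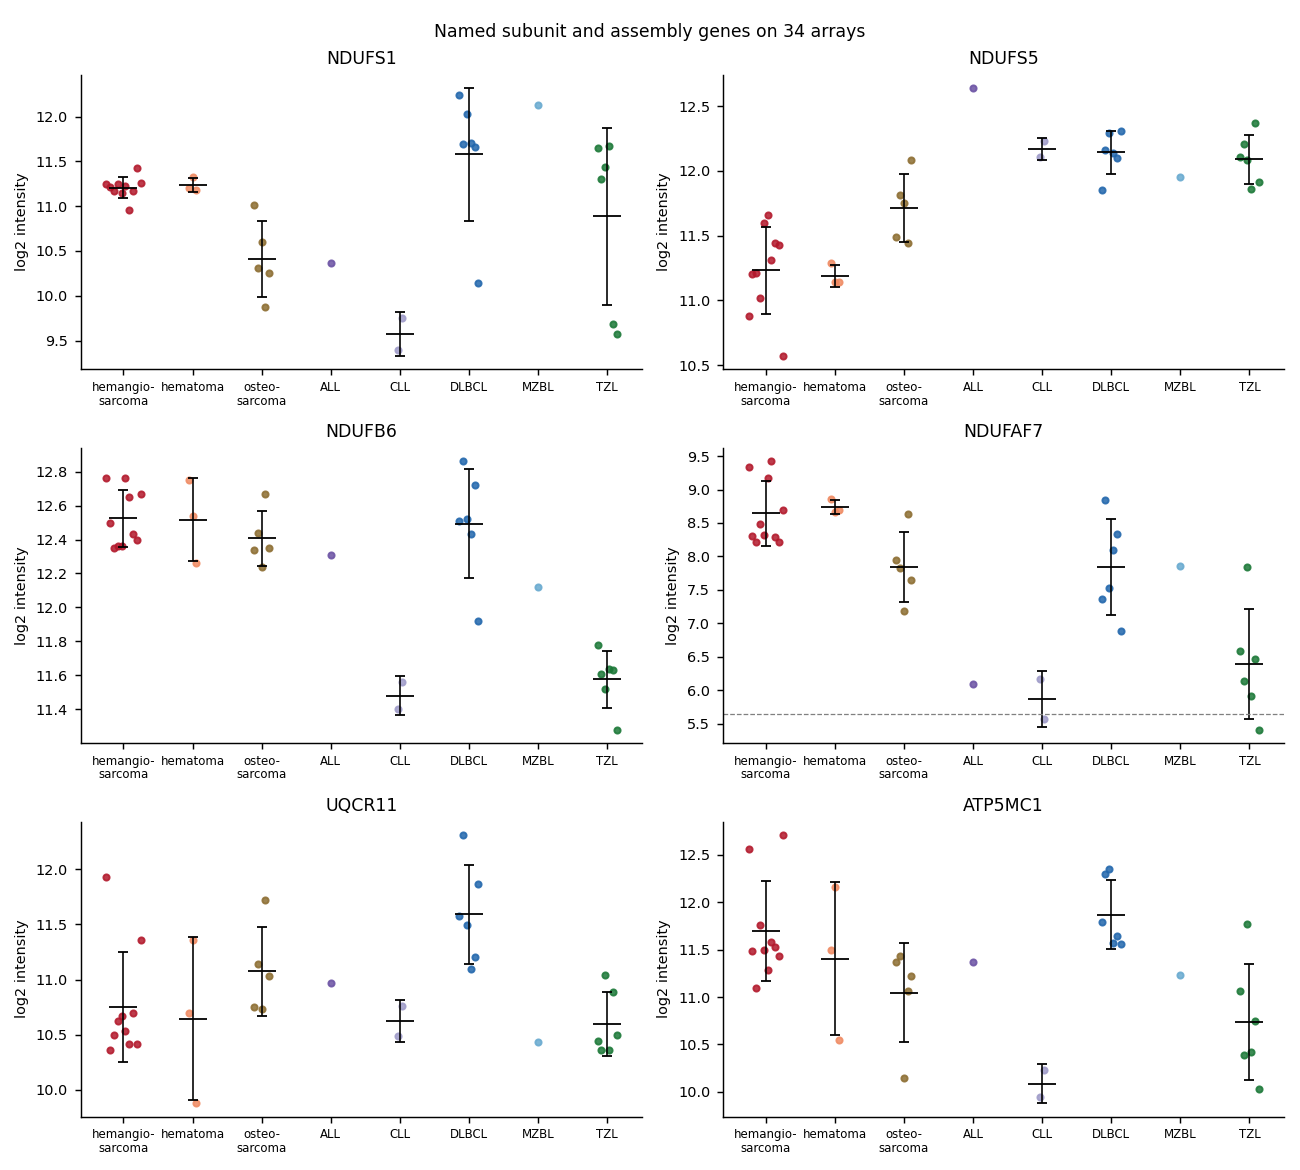
Log2 intensity (vertical axes, each with its own scale) of NDUFS1, NDUFS5, NDUFB6, NDUFAF7, UQCR11 and ATP5MC1 on each of 34 arrays (points) by tumor type, with bars for the mean and SD, and in the NDUFAF7 panel a dashed line at the median of the array medians. NDUFB6 and UQCR11 do not overlap between DLBCL and TZL, of the cultures only OSCA71 reaches the NDUFS5 range of the lymphoid cells, and the low DLBCL and TZL points of NDUFS1 are Chieftain, Thunder and Fire.

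The count of 12 depended on single arrays. It was 7 without the DLBCL Cooper, 7 without the TZL Niki, 5 without the TZL Shilo and 23 without the TZL Rose, the highest T-zone array for each complex. Without Thunder and Fire, the 2 TZL arrays with the high actin differences, the median over the 70 genes was 0.28, with 58 above 0. NDUFB6, NDUFS3, UQCR11 and UQCRQ then remained and 8 genes no longer passed, while NDUFAF3 passed as lower in DLBCL (-0.73, SE 0.19, adjusted p = 0.0232). This subset was chosen after the values were seen. For none of these subsets is the share of all probe sets that passed given here, so the counts are not read as particular to the chain.

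Among genes that serve the chain, those that passed between the lymphomas were higher in DLBCL, though most of each list did not pass. The counts stand beside the 10.1% of all genes that were higher and 9.54% that were lower, and no test set a list against other genes. Of 33 assembly factors tested, 8 were higher in DLBCL and none lower, 4 of them the NDUFAF genes above. The others included ACAD9 (1.37, SE 0.21, adjusted p = 6.67e-04) and NUBPL (1.40, SE 0.29, adjusted p = 4.77e-03), both needed for complex I, and LRPPRC (1.75, SE 0.29, adjusted p = 1.04e-03), which stabilizes mitochondrial messenger RNA. Of 17 electron carriers and genes that make them, 7 were higher and none lower. COQ7 (2.06, SE 0.42, adjusted p = 4.12e-03) and PDSS1 (1.28, SE 0.19, adjusted p = 5.27e-04) make ubiquinone, ETFDH (1.57, SE 0.35, adjusted p = 7.12e-03) feeds electrons to it, and CYC1 (0.85, SE 0.25, adjusted p = 0.0278) is cytochrome c1 of complex III. Of 39 mitochondrial ribosome genes, 11 were higher and none lower, with MRPL37 at 1.12 (SE 0.23, adjusted p = 4.81e-03). Of 17 genes of the tricarboxylic acid cycle and its entry, 6 were higher and none lower, with fumarase, FH, at 1.26 (SE 0.30, adjusted p = 0.0100). Glycolysis was mixed, with 2 of 20 genes higher and 2 lower, the latter ALDOC at -3.39 (SE 0.26, adjusted p = 2.84e-06) and ENO2 at -1.86 (SE 0.46, adjusted p = 0.0124).

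Proliferation markers moved as well: 6 of 10 were higher in DLBCL and none lower, with TOP2A at 2.19 (SE 0.63, adjusted p = 0.0270). The mean level of the 10 markers lay between 9.41 and 10.68 in the 6 DLBCL arrays and between 8.08 and 10.47 in the 6 TZL arrays, where Rose was the highest. Of 10 lymphocyte markers tested, 6 were lower in DLBCL, all T cell genes such as LCK (-4.25, SE 0.30, adjusted p = 1.56e-06), and the B cell gene MS4A1 was higher (2.15, SE 0.55, adjusted p = 0.0152). The part of proliferation and of cell type in the shift of the respiratory chain was not tested.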

How the data were processed

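RNA from 34 canine samples was hybridized to Affymetrix Canine_2 arrays. The deposited values are log2 intensities from RMA, run by the authors with affy (version not given in the sources used here), and were used without further normalization. RMA gives arrays a common distribution, so a change shared by all genes cannot be seen. Values ran from 2.03 to 14.98, and no detection calls or counts were at hand, so the number of arrays limits the precision.

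Symbols came from the array annotation: 29254 probe sets carried 1, 439 several and 13167 none, and 175 controls were left out. Of the 70 genes, 68 matched the gene table by gene number. Sequences and positions were not used here. Tests covered probe sets above the array median in a number of arrays no lower than the size of the smaller group. Groups came from the tumor type and source labels, and limma 3.58.1 (R 4.3.3) was fitted to the arrays of each comparison, with Benjamini-Hochberg adjustment over all probe sets tested. Thresholds were 0.1 for hemangiosarcoma against hematoma, 0.001 for the comparisons with all other tumors and with uncultured cells, and 0.05 otherwise. The labels do not say whether arrays of a group were processed together, so p-values measure the spread between these samples. The fit was tested on simulated data. Figures used matplotlib 3.10.9 in Python 3.11.15.

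The genes, the 15 lists and the tests were chosen with earlier results of these data known. Named genes were up to 10 per direction among those that passed in a comparison, the widest and narrowest range of each complex, the isoform sets and the SDH genes, and up to 3 per other list. UQCRQ, NDUFB9 and NDUFAF3 in the lymphomas, NDUFB7, COX5B, ACAD9, CYC1, MS4A1 and the second COX4I2 probe set were added after their values were seen. Alternatives were no filter, a trend with a robust prior, centred or quantile-normalized arrays, other probe sets, the actin difference as a covariate, all arrays in 1 fit, and left-out arrays or tumor types. The hybridization covariate and the subsets without leukemias or without Thunder and Fire were added after the data were seen.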

Additional observations from a re-analysis of the deposited data

Results flagged for a closer look

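Within groups of 5 to 10 arrays, a value was marked when its gap to the nearest other array was a large share of the group's range (Dixon's test at 95%). Of 192 groups of values, 15 were marked, where chance gives about 1 in 20, or 9.6.

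In hemangiosarcoma, Dal4 stood above the other 9 lines for NDUFB9 (11.99 against 10.76 to 11.25) and for the centred median of complex II (0.71 against -0.18 to 0.22). ChadG4 stood above them for NDUFA11 (12.02 against 10.92 to 11.40) and below them for NDUFB4 (11.58 against 11.95 to 12.26). Joey was low for ATP5J2 (11.56 against 12.08 to 12.46). In osteosarcoma, OSCA71 was low for NDUFA4L2 (4.74 against 10.79 to 12.48), NDUFS7 (9.13 against 10.18 to 10.47) and NDUFAF3 (8.78 against 9.43 to 9.64), and OSCA59 was low for ATP5MC1 (10.15 against 11.06 to 11.43).

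In DLBCL, Chieftain was low for NDUFS1 (10.14 against 11.66 to 12.24) and had the highest actin difference of the 6 arrays, 1.97. Snuggles was high for SDHD (10.80 against 9.89 to 10.20). In TZL, Fire was low for SDHA (9.70 against 10.64 to 10.86), NDUFAF1 (8.82 against 9.48 to 9.73) and the centred median of complex II (-0.89 against -0.21 to 0.13). Rose was high for ATP5J2 (12.97 against 11.93 to 12.23). The causes of these values were not tested.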

How the results depend on the processing

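No respiratory chain gene passed between hemangiosarcoma and hematoma under any of 23 alternatives. The median difference over the 70 genes moved by less than the spread between arrays under every alternative in all 5 comparisons, and ran from 0.27 to 0.45 between DLBCL and TZL and from -0.12 to 0.16 between hemangiosarcoma and hematoma.

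Against the 21 other tumors, where 2 genes passed, 1 did with no filter, with quantile normalization, without _s_at and _x_at probe sets, with the mean of a gene's probe sets, without chronic lymphocytic leukemia or without all leukemias, and 0 did without DLBCL or without TZL. Against osteosarcoma, where 4 passed, 1 did with the actin covariate, 2 with all 34 arrays in 1 fit, 0 with the hybridization covariate and 8 with all 10 hemangiosarcoma lines, and 1 to 4 with an array left out. NDUFAB1 turned to -0.09 without _s_at and _x_at probe sets, where another probe set stands for the gene. Between DLBCL and TZL, where 12 passed, 19 did with quantile normalization, 20 with all arrays in 1 fit, 6 of the 46 genes left without _s_at and _x_at probe sets, 5 without Thunder and Fire, and 5 to 23 with an array left out. Between cultured and lymphoid cells, 7 of 12 remained in number without _s_at and _x_at probe sets and 2 without hemangiosarcoma. Apart from those given further above, shares over all probe sets under these settings are not set beside the counts. The counts are therefore not read as particular to the chain. The causes were not tested. Over 531 values of single genes under alternatives, 400 kept direction and call, 130 kept direction only and 1 reversed.

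No paired analysis was possible because each array came from a separate dog.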
